A study of Mus musculus with 577 samples.

Results

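The Tcl1 cluster of the mouse consists of 6 protein-coding genes, Tcl1 and its relatives Tcl1b1, Tcl1b2, Tcl1b3, Tcl1b4 and Tcl1b5. They were taken as the 6 rows that carry these symbols among the 22060 protein-coding genes of each of 8 gene count tables, and no row was missing from any table. The genes were selected on their measured levels by oocyte stage, by granulosa position and in embryonic stem cells, so values in those groups describe the genes and are not evidence for them. The study measured RNA of single cells recovered from tissue sections by laser capture microdissection (LCM), using a lysis procedure named DRaqL in which a denaturing detergent is quenched before cDNA amplification.

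Ovaries came from 8-week-old female mice and were frozen, sectioned, fixed in alcohol and stained. No strain or genetic change was named for the mice, and single cells were not tied to individual animals. The study describes the amplification methods it compared as run on sections of the same ovary, so agreement between protocols is not agreement between animals. With DRaqL-SC3-seq, a method that sequences the 3′ ends of transcripts, 30 oocytes of secondary to early antral follicles, 14 oocytes of primary follicles, 31 granulosa cells next to an oocyte (neighboring) and 26 granulosa cells away from it (non-neighboring) were measured. The same method was applied to 7 neighboring and 7 non-neighboring pools of 10 granulosa cells, to 7 bulk granulosa samples, to 8 oocytes cut into 2 serial sections each, and to 3 granulosa cells that the study set apart because their profile was mixed with that of oocytes. Mouse embryonic stem cells (mESCs), grown with inhibitors of GSK3 and MEK and with LIF, were measured as 45 freshly picked cells and 36 cells cut from sections of a frozen cell block. Other ovarian cells were processed with the SMART-Seq v4 kit with or without DRaqL, with Smart-seq2 after LCM-seq or DRaqL lysis, or with DRaqL-Protease-Smart-seq2 after 24 h in formalin. In a further set, 1 ovary of a mouse in proestrus was sectioned and the other was dissociated, which gave 8 sectioned and 14 freshly dissociated oocytes. The freshly dissociated oocytes came from fully grown follicles and had been held with a cAMP analog, and were amplified with Smart-seq2 without DRaqL, so tissue preparation, amplification, follicle size and this treatment cannot be told apart in that set.

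TCL1 family proteins are small proteins that bind the pleckstrin homology domain of the kinase AKT and raise its activity. Human TCL1A was found through chromosome rearrangements in T cell leukemia. Mouse Tcl1 is known as a maternal-effect gene, whose product in the egg supports the first cleavages of the embryo, and as a gene of naive pluripotent stem cells. The Tcl1b genes are a rodent expansion next to Tcl1, and less is known of them.

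On GRCm38 the genes lie side by side on chromosome 12 within 76780 bases. Tcl1b2 (chr12:105146014-105155225), Tcl1b1 (chr12:105159690-105166625), Tcl1b5 (chr12:105176344-105181145), Tcl1b3 (chr12:105191043-105195612) and Tcl1b4 (chr12:105201957-105206993) are all on the plus strand, and Tcl1 (chr12:105216750-105222793) closes the row on the minus strand. The gaps between neighbors are 4464 to 9897 bases. The next genes of the surrounding segment that were examined are farther away, with Glrx5 103107 bases before the cluster and Bdkrb2 340432 bases behind it.

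The proximal promoters are shown because the members were expressed together in oocytes while only Tcl1 was expressed in mESCs. The sequences are RefSeq's, from build GRCm38.p6, each 100 bases long and ending before the transcript. Capitals mark CACCTG or its reverse CAGGTG in the Tcl1b genes and CCGCCC, the reverse of GGGCGG, in Tcl1. The stretches are chr12:105159584-105159683 (plus strand) for Tcl1b1, chr12:105146899-105146998 (plus) for Tcl1b2, chr12:105190925-105191024 (plus) for Tcl1b3, chr12:105176224-105176323 (plus) for Tcl1b5 and chr12:105222794-105222893 (minus) for Tcl1. That of Tcl1b2 lies in an intron of 1 longer annotated transcript.
Tcl1b1: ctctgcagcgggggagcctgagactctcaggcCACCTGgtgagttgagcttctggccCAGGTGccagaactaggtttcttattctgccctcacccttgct
Tcl1b2: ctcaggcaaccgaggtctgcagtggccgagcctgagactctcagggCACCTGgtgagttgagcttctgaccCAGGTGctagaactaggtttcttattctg
Tcl1b3: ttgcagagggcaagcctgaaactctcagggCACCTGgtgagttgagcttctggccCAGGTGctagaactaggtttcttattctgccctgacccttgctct
Tcl1b5: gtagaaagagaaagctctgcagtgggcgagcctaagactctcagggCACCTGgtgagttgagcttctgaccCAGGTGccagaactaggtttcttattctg
Tcl1: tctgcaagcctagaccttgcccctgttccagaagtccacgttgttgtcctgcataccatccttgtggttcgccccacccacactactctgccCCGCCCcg

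The Tcl1b promoters resembled each other and not that of Tcl1. Over the 250 bases before the start, the 10 pairs of Tcl1b promoters shared 30 to 178 windows of 20 bases, with an identity of 62 to 99.2%, whereas no such window was shared with Tcl1. Both members of a CACCTG and CAGGTG pair stood in all 5 Tcl1b promoters, and Tcl1 held 1 CACCTG 21 bases before its start, outside the stretch shown. These letters were chosen after the sequences were seen. CACCTG in either orientation was present in 17.1% of 27025 RefSeq promoters of the same length, and the wider E-box pattern CANNTG, also in all 6 genes, in 66%. The letters GGGCGG, with a share of 32.9% over all promoters, were found only in Tcl1 among the members, 2 times. None of the 6 windows held TATAAA (13% of all promoters), TAATTG (7.34%), TAATTA (4.90%) or ATGCAAAT (1.61%). Matches were counted on both strands, TAATTA and CANNTG being their own reverse, CACCTG being one form of CANNTG. The longest stretch common to the 5 Tcl1b promoters was gtggtgtccaaaataattccctgaa, which occurred in 5 of the 27025 promoters.

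The transcripts were also alike in their ends, where the reads of a 3′ method fall. Coding sequences of 348 to 366 bases were 70.2 to 85.8% identical between Tcl1b genes (median 76.2%, 10 pairs) and 44.7 to 48.8% identical between Tcl1 and a Tcl1b gene. Over the last 500 bases of the transcripts the Tcl1b genes were 87.1 to 97.2% identical. The share of 50-base windows in those 500 bases that occurred in another member was 55.4% for Tcl1b3, 46.1% for Tcl1b2, 37.0% for Tcl1b5, 17.1% for Tcl1b1 and 9.09% for Tcl1b4, and was 0 for Tcl1. Reads could therefore be divided among the Tcl1b genes by the counting, and differences among these 5 rows are uncertain, while the Tcl1 row shares no such window. In the formalin table, Tcl1b4 and Tcl1b5 were within 1 read of each other in 7 of the 10 libraries with at least 20 reads of the pair, with 509 and 489 reads in all. In the DRaqL-SC3-seq table the same pair was within 1 read in 0 of 48 libraries, and its absolute differences came to 33.6% of its reads.

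**Figure D1:**
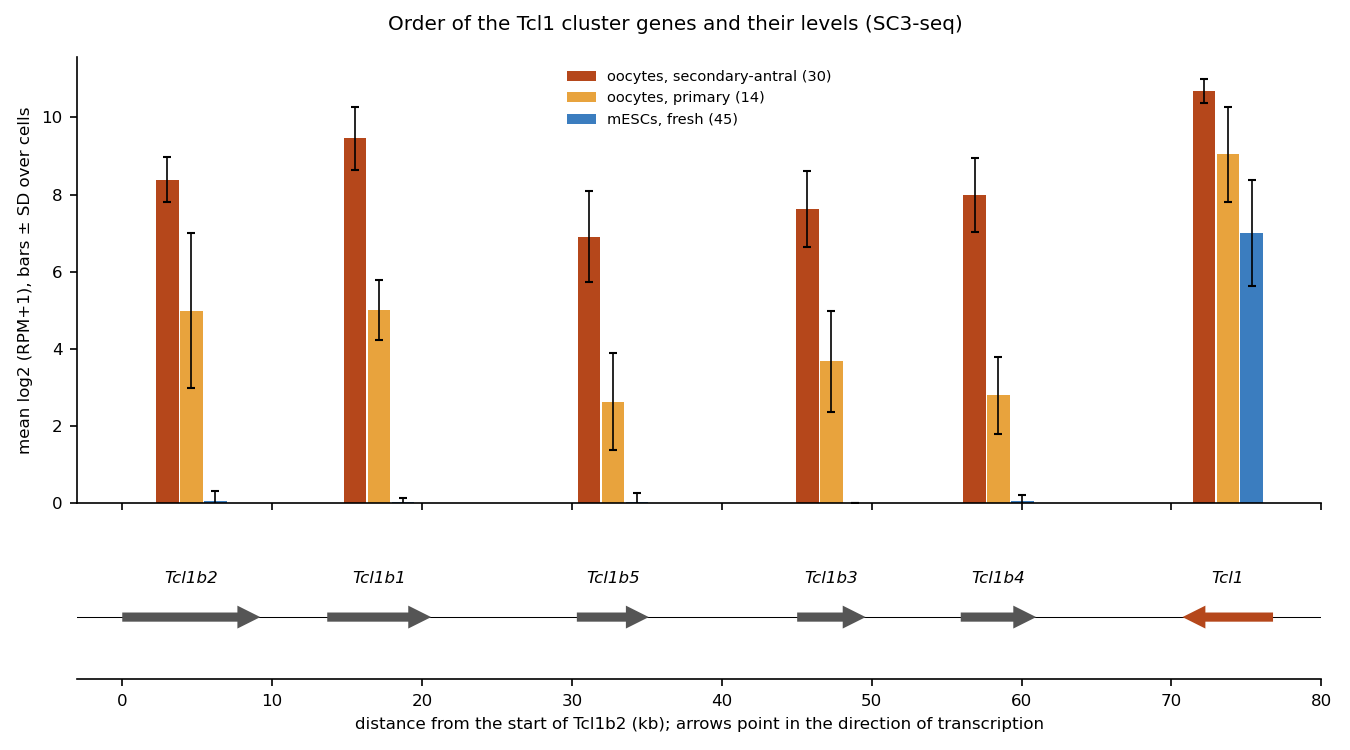
Mean log2 (RPM+1) of each member in 30 secondary-antral oocytes, 14 primary oocytes and 45 fresh mESCs, with SD over cells as error bars, drawn above the gene's place in the cluster as distance in kb from the start of Tcl1b2 (arrows give the direction of transcription). All 6 genes have a bar in oocytes of both stages, and in mESCs only Tcl1, at the right end, has a bar clearly above 0.

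Levels are given as log2 (RPM+1), where RPM is reads per 1000000 reads of protein-coding genes. A group of single cells whose animals are not named counts as 1 sample, so differences between such groups carry the SD over cells and no p-value. A gene was counted as past the size threshold where the mean log2 (RPM+1) of the groups differed by more than 1.8 and at least 1 cell exceeded 4. Protein-coding reads ranged from 12748 to 17506401 per library, with a median of 626534. All 5 pluripotency markers were detected in mESCs, with a summed median of 1524 RPM in fresh cells. Among them Pou5f1 was low, with a mean log2 (RPM+1) of 2.28 and reads in 65 of 81 mESCs. The sum of 14 oocyte markers had a median of 36922 RPM in secondary-antral oocytes and 9447 RPM in primary oocytes. The 10 granulosa markers summed to medians of 6792 RPM in neighboring and 7447 RPM in non-neighboring cells, against 131 RPM in secondary-antral oocytes. Some libraries of 1 group resembled a single partner far more than any other library. Among primary oocytes there were 5 such pairs, whose library numbers were 8 apart, with r of 0.884 to 0.973 over genes against a group median of 0.571. A pair of fresh mESCs (0.972) and a pair of non-neighboring granulosa cells (0.782) were also 8 apart, and another granulosa pair (0.567) was not. Counts within a pair differed by more than sampling noise, so the libraries were kept, and the results of the stage comparison are given also with each pair averaged, which leaves 9 primary oocytes.

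In oocytes of secondary-antral follicles every member was detected in 30 of 30 cells. Tcl1 ranged from 10.09 to 11.26 with a median of 10.72, the narrowest range of the 6, and a mean of 10.70 ± 0.31 (SD over 30 cells). Tcl1b1 ranged from 7.61 to 10.63 with a median of 9.63. Tcl1b2 ranged from 6.69 to 9.44 (median 8.54) and Tcl1b4 from 5.23 to 9.08 (median 8.33). Tcl1b3 lay between 5.25 and 9.12 (median 7.80) and Tcl1b5 between 4.24 and 8.49 (median 7.30). Tcl1 had the most reads of the cluster in 30 of 30 cells and Tcl1b1 the most of the Tcl1b genes in 30 of 30. Tcl1b2, Tcl1b4 and Tcl1b3 differed in their means by less than 1 SD from one to the next, and so did Tcl1b3 and Tcl1b5.

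In oocytes of primary follicles Tcl1 was present at a high level and the Tcl1b genes at low levels. Tcl1 ranged from 7.07 to 10.65 over the 14 cells, with a median of 9.54. Tcl1b1 ranged from 3.92 to 6.12 (median 5.15) and Tcl1b2 from 0.87 to 7.11 (median 4.96). Tcl1b3 ranged from 0.87 to 5.25 (median 3.90), Tcl1b4 from 1.08 to 4.34 (median 2.69) and Tcl1b5 from 0 to 4.10 (median 2.87). The only missing value was Tcl1b5 in 1 cell, and Tcl1 again had the most reads in 14 of 14 cells. The ranges of the stages overlapped for Tcl1 and Tcl1b2, and did not for Tcl1b1, Tcl1b3, Tcl1b4 and Tcl1b5. The share of all genes without overlap was not counted, here or in the comparisons below. Statements on overlap therefore describe the members only.

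**Figure D2:**
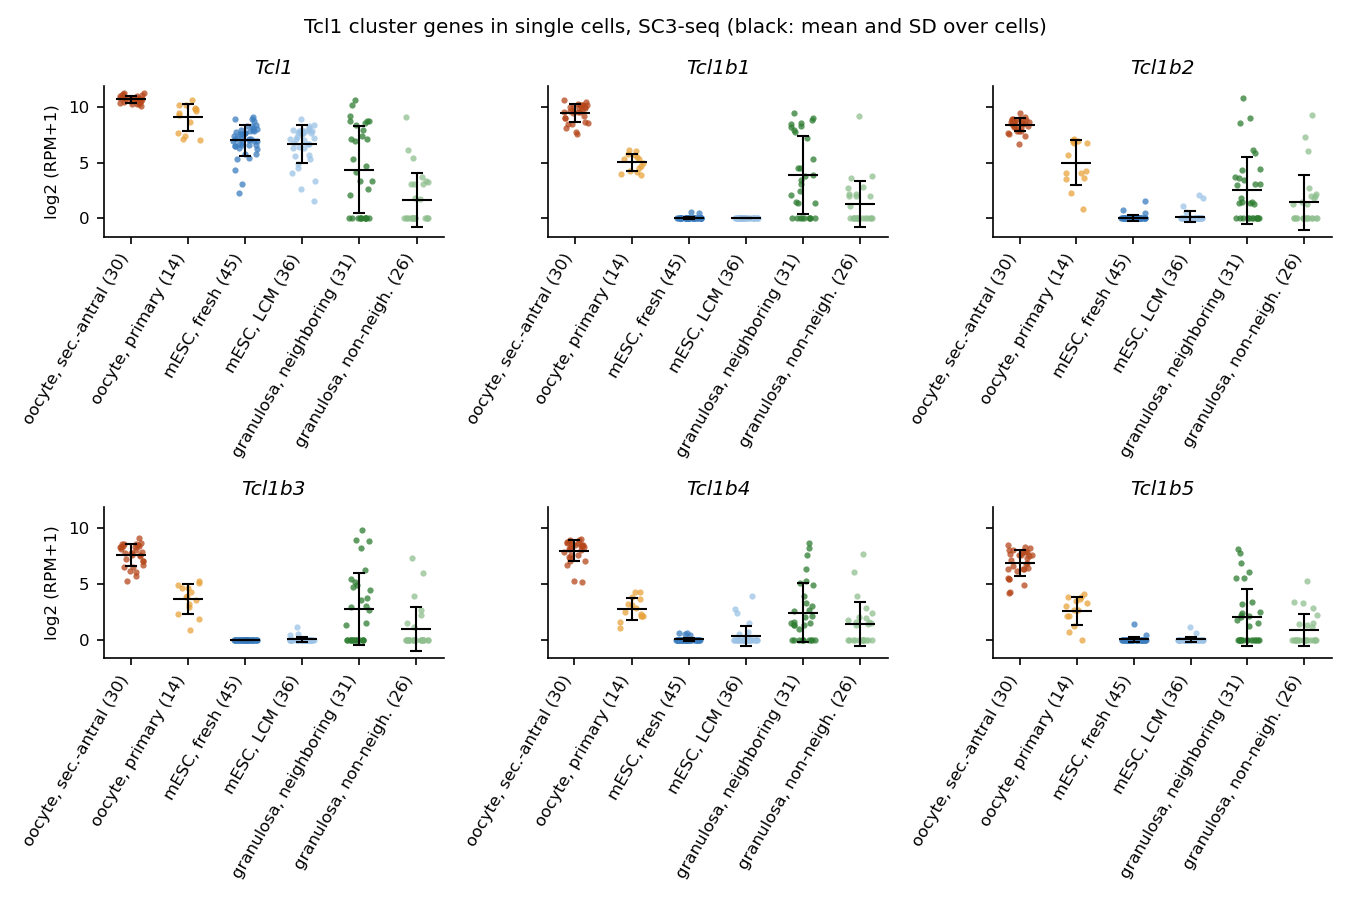
Level of each member in every SC3-seq single-cell library, log2 (RPM+1) on the vertical axis, by group with the number of cells in brackets, and the mean and SD over cells in black. Tcl1 lies between 10.09 and 11.26 in secondary-antral oocytes and is above 0 in all 81 mESCs, whereas the 5 Tcl1b genes are at or near 0 in mESCs, and the granulosa cells spread from 0 up to the levels of oocytes. The highest neighboring cells for Tcl1b2 (10.77) and Tcl1b3 (9.86) lie above all oocytes drawn.

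The stage comparison asked how the oocyte transcriptome differs between primary and later follicles. Stage and library number went together in this set, as nearly all primary oocytes carried numbers above those of every secondary-antral oocyte. Stage and order of the libraries therefore cannot be told apart here. Secondary-antral oocytes exceeded primary oocytes by 4.43 for Tcl1b1, 3.39 for Tcl1b2, 3.94 for Tcl1b3, 5.20 for Tcl1b4 and 4.28 for Tcl1b5. For Tcl1 the difference was 1.65, from 9.05 ± 1.23 to 10.70 ± 0.31 (SD over cells). Thus 5 of 6 members were past the size threshold, where 15.4% of 13245 genes were past it in this direction, and the median difference of all genes was 0.30. This contrast was used in choosing the genes, and Tcl1b1, Tcl1b3, Tcl1b4 and Tcl1b5 also stand in the lists that the study drew from these oocytes, so the count is a description. Averaging the 5 look-alike pairs left 9 primary oocytes and differences of 1.42 for Tcl1 and 3.47 to 5.09 for the Tcl1b genes, again 5 of 6. The lowest secondary-antral value of Tcl1b1 exceeded the highest primary value, and 30 of 30 cells were above it also for Tcl1b3, Tcl1b4 and Tcl1b5, against 29 for Tcl1b2 and 18 for Tcl1.

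Because Tcl1 differed less between stages than its neighbors, the makeup of the cluster's reads differed as well. Tcl1 held a median of 49.6% of the cluster's reads in secondary-antral oocytes (36.8 to 75.3%) and 82.4% in primary oocytes (65.9 to 95.9%). The summed level of the cluster had a median of 3677 RPM in the later and 909 RPM in the earlier stage. With the look-alike pairs averaged, the primary medians were 82.6% and 1051 RPM. The median share of Tcl1 was higher in primary oocytes in the other methods too, at 85.9% against 55.6% in SMART-Seq v4, 87.8% against 60.3% in DRaqL-SMART-Seq v4 and 81.6% against 71.5% after formalin. An exception was 1 primary oocyte of DRaqL-SMART-Seq v4, whose Tcl1 share of 37.1% lay below all 9 secondary-antral oocytes of that method (55.4 to 76.9%).

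The same direction was seen with the other protocols, which do not stand for other animals. With SMART-Seq v4 (11 secondary-antral and 7 primary oocytes) the differences were 1.64 for Tcl1 and 3.78 to 4.68 for the Tcl1b genes, and 5 of 6 were past the threshold (17.4% of all genes higher, 4.91% lower). With DRaqL-SMART-Seq v4 (9 and 6 oocytes) they were 2.47 for Tcl1 and 3.81 to 6.04 for the Tcl1b genes, 6 of 6 past it (20.8% of all genes higher, 9.7% lower). In these primary oocytes Tcl1b4 was detected in 1 of 6 cells and Tcl1b5 in 2 of 6. Library pool and stage went together, since all 9 secondary-antral oocytes of the DRaqL set and 10 of 11 of the set without it were in another pool than the primary oocytes, so stage and pool cannot be told apart there.

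In formalin-fixed sections, where both stages shared a library pool, the differences were 2.24 for Tcl1, 3.00 for Tcl1b1, 4.52 for Tcl1b2, 3.81 for Tcl1b3, 4.51 for Tcl1b4 and 3.59 for Tcl1b5, with 6 of 6 past the threshold (14.3% of all genes higher, 11% lower). Tcl1 in the 5 primary oocytes was 8.63, 7.24, 8.45, 7.18 and 9.11, all under the 9.87 of the lowest of 7 secondary-antral oocytes. Tcl1b1 in the primary oocytes was 3.42, 4.88, 5.31, 4.52 and 6.35, and ranged from 7.37 to 8.36 in the later ones. Tcl1b2 was 0, 2.91, 0, 3.05 and 3.47 in the primary oocytes, against 5.60 to 6.89. The Tcl1b2 values of the primary oocytes rest on 0 to 13 reads per cell. In secondary-antral oocytes of the SMART-Seq v4 sets, differences between lysis procedures were smaller than those between stages. There the members differed by -0.34 to 0.72 between DRaqL and kit lysis, and none was past the threshold (1.28% of all genes higher, 2.91% lower). This does not extend to primary oocytes. Their Tcl1b4 mean was 1.76 with kit lysis and 0.06 with DRaqL, and their Tcl1b5 mean 1.75 and 0.55, while Tcl1b1 was higher with DRaqL (4.94 and 5.43). Stage differences of the lowest genes thus also varied with the lysis set.

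**Figure D3:**
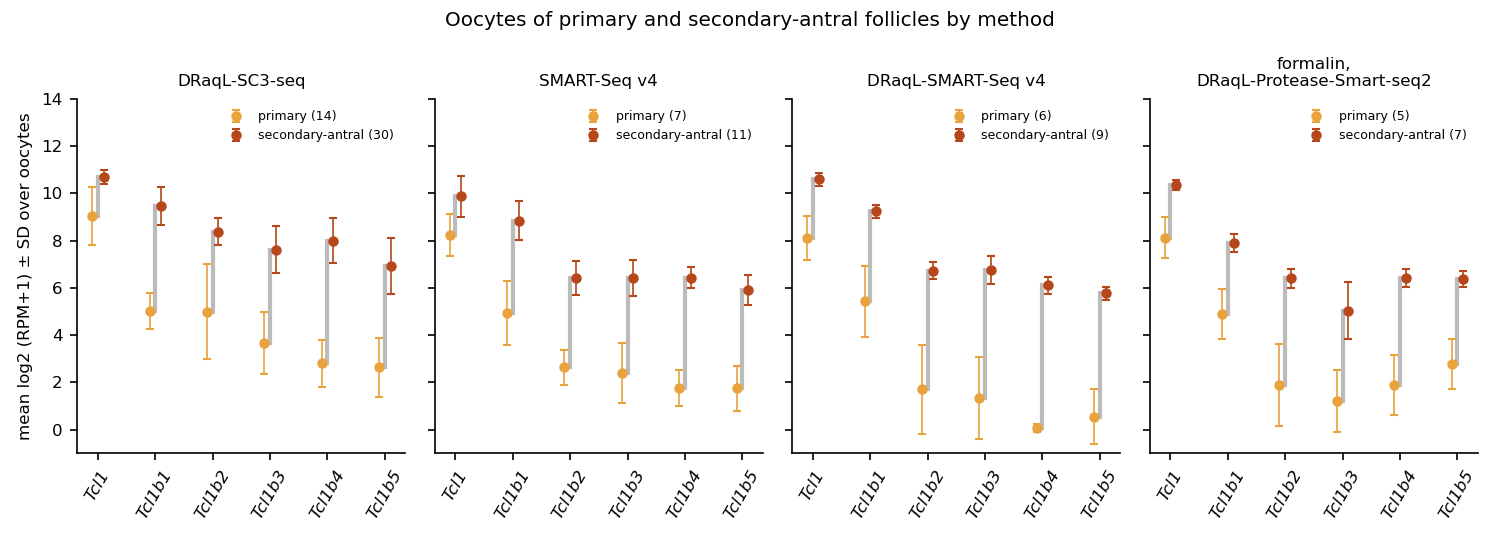
Mean log2 (RPM+1) with SD over oocytes for each member in primary and secondary-antral oocytes, in 4 protocols, with the number of oocytes in brackets and gray lines joining the 2 stages. The gap is smallest for Tcl1 in every protocol (1.65, 1.64, 2.47 and 2.24) and reaches 6.04 for Tcl1b4 in DRaqL-SMART-Seq v4.

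Serial sections of 1 oocyte gave close values. For the 8 oocytes cut in 2, section 2 minus section 1 averaged -0.04 ± 0.22 for Tcl1, 0.23 ± 0.35 for Tcl1b1, 0.06 ± 0.57 for Tcl1b2, 0.10 ± 0.39 for Tcl1b3, 0.02 ± 0.41 for Tcl1b4 and 0.30 ± 0.48 for Tcl1b5 (SD over 8 oocytes). None of the members was past the threshold, where 0.00929% of all genes were. The SD between oocytes in the first section was 0.29 for Tcl1 and 0.43 to 0.69 for the Tcl1b genes, above the SD of the section differences for each of the 6.

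In the ovaries of the same mouse, sectioned secondary-antral oocytes were lower than freshly dissociated grown oocytes. Tcl1 ranged from 8.15 to 10.13 (median 9.85) in the 8 sectioned and from 11.27 to 12.28 (median 11.95) in the 14 fresh oocytes, without overlap. The difference, sectioned minus fresh, was -2.23 for Tcl1, -2.54 for Tcl1b1, -1.80 for Tcl1b2, -2.37 for Tcl1b3, -1.03 for Tcl1b4 and -1.59 for Tcl1b5. The threshold was passed by 4 of 6 members, all lower, and by 6.25% of all genes in this direction and 7.9% in the other. Tcl1 held a median of 80.7% of the cluster's reads in the sectioned and 82% in the fresh oocytes.

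Across the 44 DRaqL-SC3-seq oocytes the Tcl1b genes varied together. The 10 pairwise correlations of log2 (RPM+1) ranged from 0.816 to 0.979, with a median of 0.943, and those of Tcl1 with a Tcl1b gene from 0.754 to 0.854. These cells hold both stages and share a protocol, and the 5 Tcl1b rows can share reads. Within the 30 secondary-antral oocytes the median was 0.895 and within the 14 primary oocytes 0.527. With the look-alike pairs averaged, it was 0.940 over 39 oocytes and 0.486 over 9 primary oocytes. Nearest to Tcl1 among 13245 genes were Plrg1 (r = 0.900), a spliceosome component, Elof1 (0.894), a transcription elongation factor, and Ttll11 (0.885), a tubulin glutamylase. Nearest to Tcl1b1 were Oosp1 (0.968), which encodes a protein secreted by oocytes, Tcl1b4 (0.967) and Zar1l (0.966), a relative of the maternal factor Zar1. Tcl1b4 was nearest to Oosp1 (0.979), Gm13023 (0.978) and the F-box gene Fbxw19 (0.978). Tcl1b2 was nearest to Tcl1b3 (0.945), Dok4 (0.938), a docking protein of tyrosine kinases, and Birc3 (0.938), an inhibitor of apoptosis. Tcl1b3 and Tcl1b5 were nearest to each other (0.979) and then to Rfpl4, a RING finger gene of oocytes (0.966 and 0.973), and Birc3 (0.964 and 0.957). Of these 18 nearest places, 13 were held by the same gene of the same member's top 3 when the look-alike pairs were averaged, and 1 within the 30 secondary-antral oocytes. Within that stage Tcl1 was nearest to Apela (0.889), a peptide hormone gene, Trim60 (0.877) and Stbd1 (0.875), and Bcl2l10, a BCL2 relative of oocytes, came first for Tcl1b1 (0.961), Tcl1b2 (0.897) and Tcl1b4 (0.939).

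The kinase pathway that TCL1 proteins act on was measured beside them. Of 28 genes of the AKT pathway, 27 passed the filter on low values in the stage comparison, 3 were past the size threshold in each direction, against 15.4% higher and 4.62% lower of all genes, and their median difference was 0.39 against 0.30 for all genes. With the look-alike pairs averaged, 3 were higher and 2 lower, with a median of 0.40. Akt1 and Akt2, which encode AKT kinases, were below the threshold, with Akt1 at 6.19 ± 0.49 in secondary-antral and 6.11 ± 1.07 in primary oocytes and Akt2 at 5.50 ± 0.74 and 6.60 ± 0.74 (SD over cells). Higher in the later oocytes were Pik3cd (3.88), a catalytic subunit of PI3-kinase, Gsk3a (2.54), a kinase that AKT inhibits, and Foxo1 (1.87), a transcription factor that AKT keeps out of the nucleus. Lower were Eif4ebp1 (-3.30), a repressor of translation, Tsc2 (-2.65), an inhibitor of mTORC1, and Rptor (-1.81), a subunit of mTORC1.

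The chromosomal neighborhood did not share one pattern. Of the 10 genes flanking the cluster, 9 passed the filter, 3 were higher and 1 lower in secondary-antral oocytes past the threshold (15.4% and 4.62% of all genes), with a median difference of 1.11 against 0.30 for all genes. The counts were the same with the look-alike pairs averaged, with a median of 1.02. Syne3, a nuclear envelope protein (3.94), Bdkrb1, a bradykinin receptor (2.93), and Dicer1, the nuclease of small RNA maturation (2.07), were higher, and Clmn (-3.25) was lower. Glrx5, of iron-sulfur cluster assembly (1.33), Atg2b, of autophagy (1.11), Papola, a poly(A) polymerase (0.92), Ak7, an adenylate kinase (0.33), and Gskip, which binds GSK3 (0.16), were under it, and Bdkrb2 (0.27) stayed under the filter on low values. Mtcp1, the TCL1 family gene on chromosome X, was 5.30 ± 0.50 in secondary-antral and 4.24 ± 2.45 in primary oocytes, and 0.92 in mESCs.

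In mESCs Tcl1 was detected in 81 of 81 cells, from 1.57 to 9.10 with a median of 7.14. Fresh cells averaged 7.01 ± 1.38 (n = 45) and sectioned cells 6.66 ± 1.69 (n = 36), a difference of -0.35, less than 1 SD over cells. No member was past the threshold between fresh and sectioned cells, where 0.0229% of genes were higher and 0.465% lower. Tcl1 spread widely from cell to cell, with 9 of 81 cells under 5. Of 838 genes whose mean lay within 0.5 of that of Tcl1, 95.7% had a smaller SD, and their median SD was 1.07 against 1.53 for Tcl1. The spread showed little relation to the pluripotency genes or depth, as r with Tcl1 over the 81 cells was -0.14 for Nanog, -0.08 for Sox2, 0.10 for Zfp42, 0.02 for Esrrb, -0.03 for Pou5f1 and 0.03 for the log2 read total. The value for Pou5f1 rests on low levels (2.28 ± 1.81, SD over 81 cells).

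The Tcl1b genes were nearly absent from mESCs. They had 93 reads in all 81 cells together, in 22 cells, and 33 of these reads were in 1 cell, beside 26539 reads of Tcl1. This is 3.50 Tcl1b reads per 1000 Tcl1 reads, against 1093 in secondary-antral and 185 in primary oocytes. Tcl1b1 was seen in 2 of 45 fresh and 0 of 36 sectioned cells, the latter allowing up to 3 reads over the group, and Tcl1b3 in 0 of 45 and 3 of 36.

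Libraries that covered more of the transcript, made with a Y-shaped adapter for exon and junction counts, showed the same contrast. They were made from amplified single-cell cDNA, and their labels repeat those of SC3-seq cells above, so they are not further cells. Of 10 cells sequenced in each group, the study kept the 5 with the most mapped reads. Exon reads were taken over the exons of 1 annotated transcript per gene, of 6 annotated for Tcl1. In reads per kb of exon per 1000000 exon reads, Tcl1 was 934, 767, 525, 801 and 798 in the 5 secondary-antral oocytes, and 17.6 to 71.6 (median 48.1) in 10 mESC libraries. On the same scale per length, the oocyte medians of the Tcl1b genes were 567 for Tcl1b1, 409 for Tcl1b2, 265 for Tcl1b4, 220 for Tcl1b3 and 161 for Tcl1b5. The last exon of the Tcl1b genes took 80.1 to 89.8% of their exon reads in oocytes, so coverage was uneven to different degrees and the order of the genes is uncertain. In mESCs Tcl1b1 had 6 reads, Tcl1b2 3, and Tcl1b3, Tcl1b4 and Tcl1b5 had 0 in all 10 libraries. The last exon of Tcl1 (chr12:105216750-105217701) took 97.0% of its exon reads in mESCs and 96.9% in oocytes. The first exon (chr12:105222533-105222737) took 0.0429% of 6994 reads in mESCs and 0.512% of 37475 reads in oocytes, so the start of this transcript held few of the reads in either cell type. It had 3 reads beside 117 in the second exon in mESCs, and 192 beside 502 in oocytes. Use of another start was not tested. Splice junctions of Tcl1 were supported by 83 reads over 2 junctions in mESCs and 492 reads over 8 junctions in oocytes. Junction reads of the Tcl1b genes in oocytes numbered 1735 for Tcl1b1, 3320 for Tcl1b2, 1833 for Tcl1b3, 688 for Tcl1b4 and 1458 for Tcl1b5, and none was seen in mESCs. Exons and junctions were counted with multi-mapped reads included, so reads of these similar genes may have been counted for more than 1 of them.

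The position comparison asked how granulosa cells beside the oocyte differ from those farther away. In single cells, neighboring cells averaged 4.36 ± 3.88 for Tcl1 and 3.90 ± 3.50 for Tcl1b1, and non-neighboring cells 1.68 ± 2.42 and 1.30 ± 2.07 (SD over 31 and 26 cells). The values covered nearly the whole scale, as Tcl1 ranged from 0 to 10.62 (median 4.12) in neighboring and from 0 to 9.08 (median 0) in non-neighboring cells. The differences were 2.68 for Tcl1, 2.60 for Tcl1b1, 1.07 for Tcl1b2, 1.82 for Tcl1b3, 1.04 for Tcl1b4 and 1.15 for Tcl1b5. The threshold was passed by 3 of 6 members and by 0.55% of 14011 genes in this direction (1.42% in the other). Position entered the choice of the members, and Tcl1 and Tcl1b1 belong to the study's own list of genes higher beside the oocyte, so this count is a description too.

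Tcl1 had at least 1 read in 20 of 31 neighboring cells (64.5%, exact 95% interval 45.4 to 80.8%) and 11 of 26 non-neighboring cells (42.3%, 23.4 to 63.1%), intervals that cover counting error only. After thinning every cell to 162033 reads the shares were 58.1% and 34.6%. A Tcl1b gene had a read in 28 of 31 neighboring and 17 of 26 non-neighboring cells. For comparison, one had a read in 22 of 81 mESCs, whose libraries were deeper (medians of about 2068210 reads fresh and 1951460 sectioned, against 585673 in neighboring and 544072 in non-neighboring cells). Oocyte markers moved with the members. The 14 markers, which include the egg coat genes Zp2 and Zp3 and the growth factor genes Gdf9 and Bmp15, summed to 0 to 17299 RPM (median 2943) in neighboring and 0 to 14355 RPM (median 64.2) in non-neighboring cells. In neighboring cells 10 of the 14 were past the threshold and none was without reads in either group. Across cells the log2 sum of the members followed the log2 sum of the markers with r = 0.734 (31 neighboring) and 0.749 (26 non-neighboring), numbers that share the library total. The part of oocyte RNA in the result was not tested.

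Cells numbered GC001 to GC072 and GC073 to GC100 differed in level. Tcl1 was 3.19 ± 3.78 in 22 neighboring and 1.04 ± 2.26 in 20 non-neighboring cells of the first range, and 7.21 ± 2.46 in 9 and 3.83 ± 1.61 in 6 cells of the second. The difference between positions was 2.15 within the first range and 3.38 within the second for Tcl1, 1.86 and 4.08 for Tcl1b1, 1.14 and 0.30 for Tcl1b2, and 1.52 and 2.11 for Tcl1b3. Of the 3 members past the threshold in all cells, Tcl1b3 was thus under it in the first range. The oocyte markers followed, with medians of 1617 and 10.7 RPM in the first range and 6709 and 1382 RPM in the second. The 3 cells of mixed profile held the members as well. Tcl1 was 9.51 in the neighboring cell and 4.93 and 7.20 in the non-neighboring cells, and Tcl1b1 was 7.63, 5.34 and 9.50.

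Other single-cell protocols gave smaller or larger differences between positions. Higher past the threshold in neighboring cells were 0 of 6 members with SMART-Seq v4 (1.51% of all genes higher, 3.77% lower), 2 with DRaqL-SMART-Seq v4 (1.91% and 3.34%), 5 with LCM-seq (4.53% and 0.931%), 1 with DRaqL-Smart-seq2 (2.52% and 1.03%) and 1 after formalin (5.31% and 2.31%). In the ovaries of the same mouse it was 0 of 6 for sectioned cells (0.812% and 1.11%) and 0 of the 5 that passed the filter on low values for fresh cells (0.396% and 15.7%). Tcl1 had the largest difference of the 6 in each of these, from 1.07 in fresh cells of the same mouse to 5.29 in LCM-seq, and every member's difference in mean level was at least 0. The fresh cells of the same mouse were taken from isolated complexes of an oocyte and its granulosa cells. In this set, neighboring means attached to the oocyte, and non-neighboring means the other granulosa cells of these complexes. Per the study, profiles mixed with that of oocytes were more frequent among the attached cells. Such cells were kept in this set, unlike in the DRaqL-SC3-seq comparison. Shares of cells with a read did not always go the same way. In fresh cells of the same mouse, Tcl1 had a read in 50% of 14 neighboring and 61.9% of 21 non-neighboring cells, and in sectioned cells Tcl1b3 had one in 17.1% and 25.7% of 35 cells each. Depth differed, and cells under 100000 reads were left out when thinning to that number. The thinned Tcl1b3 shares went the other way, at 10.7% of 28 neighboring and 6.25% of 32 non-neighboring cells. For Tcl1 in fresh cells they were 16.7% of 6 and 50% of 14. With LCM-seq, Tcl1 averaged 5.86 in 17 neighboring cells and 0.58 in 20 non-neighboring cells. With DRaqL-SMART-Seq v4, Tcl1b1, Tcl1b2, Tcl1b3 and Tcl1b5 were at 0 in all 19 non-neighboring cells. The median difference of the oocyte markers past the filter was 4.62 in LCM-seq, the highest of these 7 protocols, and 1.04 in fresh cells, the lowest. Of 6 theca and interstitial markers, 5 were lower past the threshold in neighboring cells with DRaqL-SMART-Seq v4 (median difference -2.97), 3 after formalin (-1.43), 1 each with SMART-Seq v4, DRaqL-Smart-seq2 and in fresh cells, and 0 with LCM-seq and in sectioned cells of the same mouse. Their part in the result was not tested.

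Pools of 10 cells are the only granulosa groups here with libraries that can stand as replicates, although the labels do not say whether they came from different animals, so the p-values measure the spread between these libraries. In the 7 neighboring pools Tcl1 ranged from 3.14 to 9.13 (median 7.33), and in the 7 non-neighboring pools from 0 to 3.94 (median 0.18), with an overlap at 1 pool. Tcl1b1 ranged from 5.00 to 8.91 (median 6.24) and from 0 to 1.66 (median 0.48), without overlap. Tcl1b2 ranged from 2.72 to 8.09 (median 6.16) against 0 to 1.14, Tcl1b3 from 3.13 to 7.95 (median 4.73) against 0 to 0.78, Tcl1b4 from 2.27 to 8.06 (median 4.23) against 0 to 0.97, and Tcl1b5 from 2.73 to 7.33 (median 4.85) against 0 to 0.68, all without overlap. How many of all genes lacked overlap between the pools was not counted, so this describes the members only. In such pools, fewer cells with a transcript and less of it per cell cannot be told apart.

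By edgeR's quasi-likelihood test with Benjamini-Hochberg adjustment over 9704 genes, 44 genes passed an adjusted p of 0.05, all higher in neighboring pools, which is 0.453% of those tested. The 44 genes included 5 of the 6 members. The direction was less uniform with DESeq2, where 301 genes were higher and 110 lower. By the size threshold used for single cells, 6 of 6 members were higher, as were 5.29% of all genes, with 5.83% lower. The fitted log2 fold change was 7.13 ± 1.14 (SE) for Tcl1b1 (adjusted p = 0.0103), 8.30 ± 1.48 for Tcl1b2 (0.0197), 8.47 ± 1.45 for Tcl1b3 (0.0178), 7.65 ± 1.49 for Tcl1b4 (0.0259) and 7.82 ± 1.57 for Tcl1b5 (0.0287), from edgeR in 7 against 7 pools. Tcl1, at 6.21 ± 1.39, did not pass (edgeR adjusted p = 0.0507), and was higher than each of the 7 non-neighboring pools in 6 of 7 neighboring pools. As the contrast was in view when the genes were chosen, these tests describe the pools. The calls depended on single pools, since 0 members passed without the pools numbered 5, 1 without those numbered 4, 2 without 6 and 3 without 7, while the log2 folds over all alternatives stayed between 5.66 and 9.74 for the 6 members. They also depended on pairing, since with the pool number as a replicate block only Tcl1b1 passed (edgeR adjusted p = 0.0277). Of the 25 AKT pathway genes tested, 0 were called, with log2 fold changes of -0.55 ± 0.48 for Akt1 and 1.17 ± 0.78 for Akt2 (edgeR adjusted p = 0.998 for each), and of the 5 flanking genes tested 0 were called.

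Oocyte markers differed between the same pools. Of the 14 markers tested, 9 were called higher in neighboring pools by edgeR, with a median log2 fold change of 6.08, among them Gdf9 at 6.28 ± 1.12 (adjusted p = 0.0197), Bcl2l10 at 6.30 ± 1.15 (0.0205), and Oosp1 at 6.47 ± 1.21 (0.0217). Their summed level was 856 to 8865 RPM (median 1582) in neighboring and 2.34 to 151 RPM (median 66.4) in non-neighboring pools, and all 14 had reads in both groups. Of the 7 granulosa markers tested 0 were called. Markers of theca and interstitial cells had medians of 0.55 RPM in neighboring and 363 RPM in non-neighboring pools. Blood markers reached 16.5 RPM in neighboring and 1700 RPM in non-neighboring pools, with medians of 0 in both. Of the markers past the filter on low values, 4 of 5 theca and interstitial markers (median difference -4.14) and 2 of 3 blood markers (-2.38) were lower in neighboring pools past the size threshold. Set against the reads of the 14 oocyte markers, Tcl1 had 4.75% as many reads in secondary-antral oocytes, 6.54% in primary oocytes and 6.24% in the neighboring pools, their reads summed. For Tcl1b1 the shares were 2.24%, 0.338% and 3.13%, and for Tcl1b4 0.843%, 0.0739% and 2.21%. In the pools they were 2.43% for Tcl1b2, 2.33% for Tcl1b3 and 1.19% for Tcl1b5. Single pools spread widely around these sums, from 0.895 to 18.7% for Tcl1 and from 0.447 to 11.1% for Tcl1b1 (median 5.42%). The part of oocyte, theca or blood RNA in the pools was not tested.

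**Figure D4:**
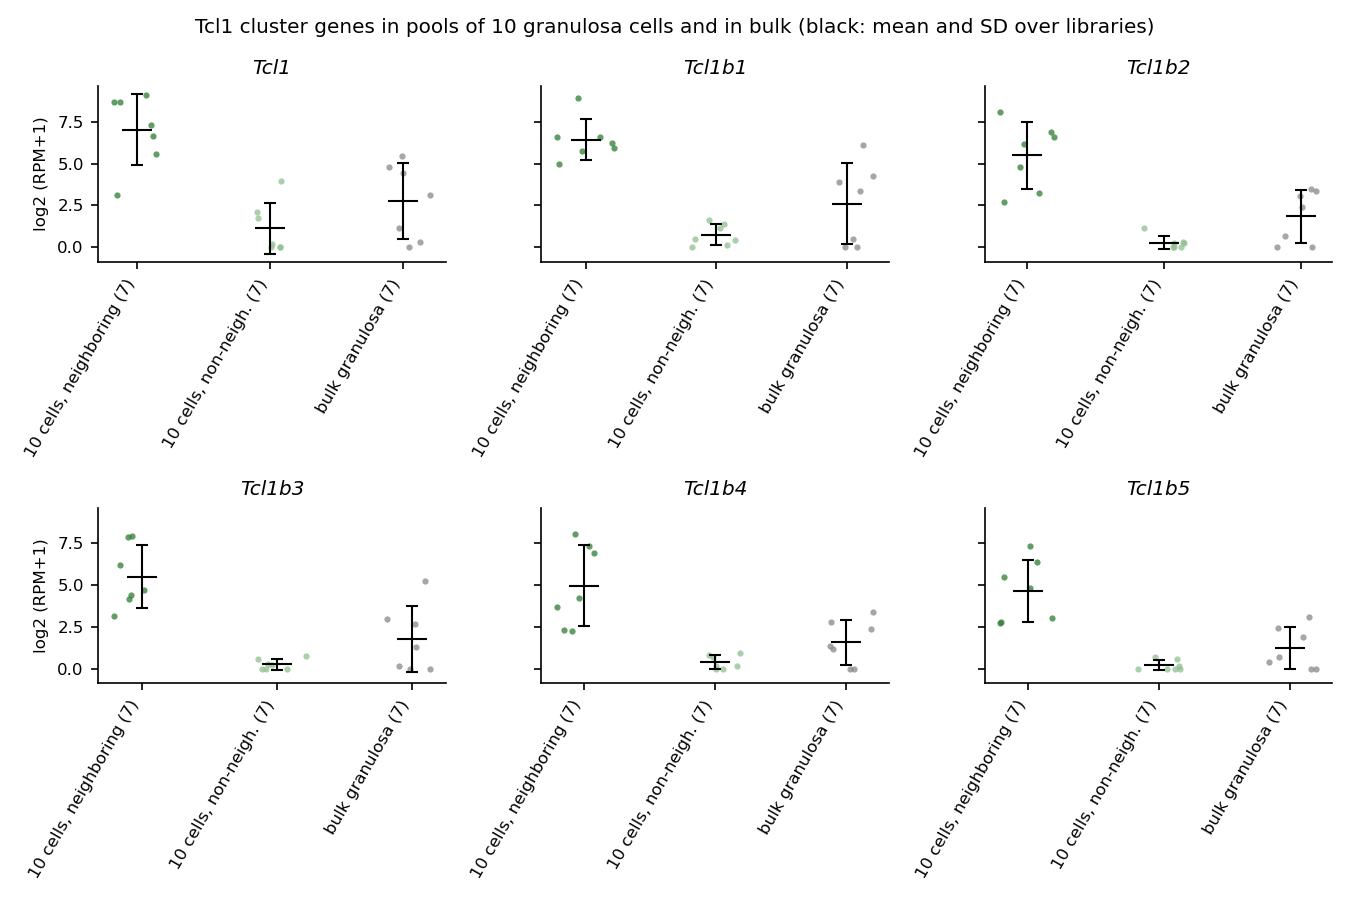
Level of each member, log2 (RPM+1), in the 7 neighboring pools, 7 non-neighboring pools and 7 bulk granulosa samples, 1 point per library, with mean and SD in black. Every neighboring pool lies above every non-neighboring pool for the 5 Tcl1b genes, and for Tcl1 1 neighboring pool, at 3.14, lies below the highest non-neighboring pool, at 3.94. The share of all genes without overlap was not counted.

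The bulk granulosa samples lay between the pools in their means, with Tcl1 from 0 to 5.44 (median 3.14) and Tcl1b1 from 0 to 6.09 (median 3.36). Tcl1b2 averaged 1.86, Tcl1b3 1.77, Tcl1b4 1.59 and Tcl1b5 1.22. Samples 3, 4 and 5 were high for each member, while samples 6 and 8 held at most 1 read of any of them in 3826680 to 7446680 protein-coding reads per sample. Oocyte markers ranged from 4.97 to 1713 RPM over the 7 samples, and the summed members followed them with r = 0.993 on the log2 scale, a description over 7 libraries. Per the study, 4 bulk samples came from early antral follicles whose oocyte was cut out of the section first. The others came from follicles of unidentified stage without an oocyte in the section. The sample titles do not tell these kinds apart.

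**Figure D5:**
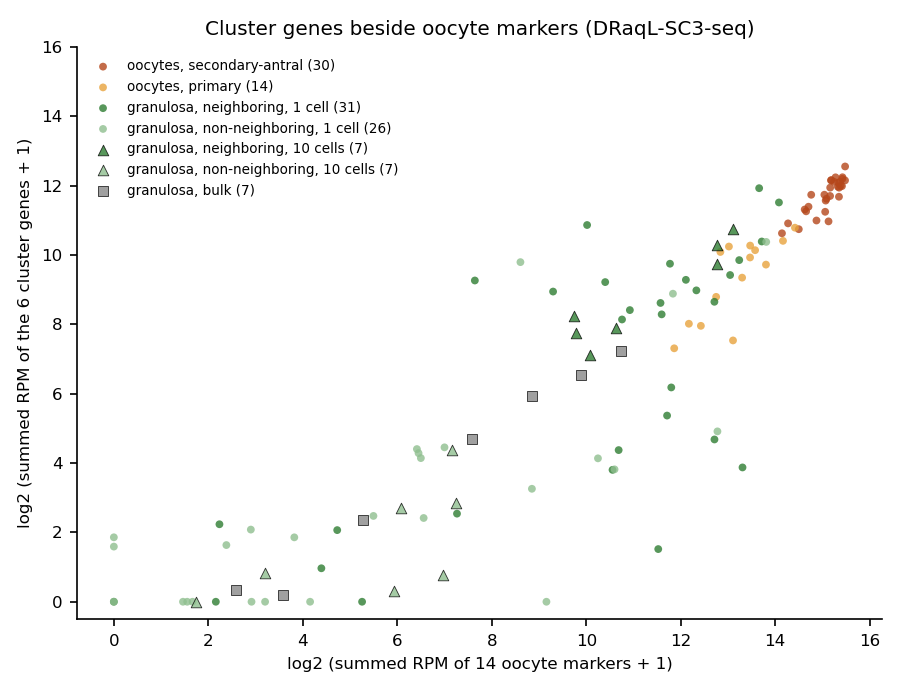
Summed level of the 6 members against the summed level of 14 oocyte markers, both as log2 (RPM+1), for oocytes, single granulosa cells, pools of 10 cells and bulk samples, 1 point per library. Pools and bulk samples run from the lower left, with members near 0 and markers low, to neighboring pools that reach the markers' level of primary oocytes, and single granulosa cells scatter around the same course.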

How the data were processed

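All deposited values were raw counts of reads per gene, exon or splice junction. Per the labels and the study's methods, the authors trimmed reads with fastp 0.20.0 and cutadapt 1.16, mapped them to GRCm38 with HISAT2 2.1.0, counted reads near annotated 3′ ends with HTSeq 0.10.0, and counted exons and junctions with featureCounts 2.0.1, which was run with multi-mapped reads included. The members and gene lists were chosen with earlier results of these data known. Counts of 22060 protein-coding genes were scaled to reads per 1000000 (RPM) and taken as log2 (RPM+1), and single cells were compared by means and SD with a size threshold of 1.8 (and a level above 4 in at least 1 cell). The 7 neighboring and 7 non-neighboring pools were compared with edgeR 4.0.16 (quasi-likelihood test, TMM scaling, low counts filtered, Benjamini-Hochberg over all genes tested), after a check on simulated counts. Alternatives were DESeq2 1.42.0, other pseudocounts, scalings and filters, thinning to equal depth, and leaving out pools. Named were the 6 members, for each the 3 genes of highest correlation over 44 oocytes, Akt1 and Akt2, AKT pathway genes past the threshold, all flanking genes and Mtcp1, and not every gene of this rule is reported here. Other genes were named after their values were seen. Marker, AKT and flanking lists were written by hand. Protein-coding reads per library ranged from 12748 to 17506401, and shallow libraries leave values of a few reads uncertain. Sequences came from RefSeq GRCm38.p6 promoters, matched for 6 of 6 members, and GENCODE M21 transcripts. The promoter of Tcl1b4 was not printed because another annotated transcript covers it.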

Additional observations from a re-analysis of the deposited data

Results flagged for a closer look

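In groups of 4 to 10 libraries, the highest or lowest value of a member stood apart from the others by Dixon's 95% criterion in 10 of 84 tests. Each test took 1 member in 1 group. The members share libraries and vary together, and some flagged sets were 0 in all other libraries. The criterion's chance rate of about 1 in 20 therefore does not apply to this count, which is a list of values to look at. Tcl1b1 was highest in neighboring pool 5 at 8.91, next to 6.62. Tcl1b2 was highest in non-neighboring pool 1 at 1.14, next to 0.34. Tcl1 was lowest in 1 primary oocyte of SMART-Seq v4 at 6.39, next to 8.14. In primary oocytes of DRaqL-SMART-Seq v4, 1 cell was highest for Tcl1b4 at 0.384 with the others at 0, and another for Tcl1b5 at 2.93, next to 0.384. Tcl1 was lowest in 1 formalin-fixed secondary-antral oocyte at 9.87, next to 10.39. Among the sectioned oocytes of the same mouse, Tcl1 was lowest in 1 cell at 8.15, next to 9.22, and Tcl1b2 in another at 1.51, next to 3.72. In the Y-shaped adapter libraries, 1 of 5 mESC libraries labelled LCM was highest for Tcl1b1 at 0.218 with the others at 0 (2 reads, where 4 of all 10 mESC libraries had 1 or 2 reads), and 1 oocyte was lowest for Tcl1b3 at 6.58, next to 7.74. All values are log2 (RPM+1).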

How the results depend on the processing

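Over 244 alternatives for 68 results, 211 values were classed as unchanged and 33 as moved. A reversed direction was looked for only in differences past the size threshold, and no value was classed so. A change of sign in smaller differences was not tested. With DESeq2 and its size factors, 411 of 14106 genes (301 higher, 110 lower) and 6 of 6 members passed in the pools, against 44 of 9704 (all higher) and 5 with edgeR. Leaving out the pools of 1 number gave 5 to 34 genes and 0 to 6 members, and the edgeR or DESeq2 adjusted p over the alternatives ranged from 0.000286 to 0.259 for Tcl1, 7.84e-13 to 0.144 for Tcl1b1 and up to 0.255 for the other Tcl1b genes. The log2 folds moved less, from 5.66 to 8.01 for Tcl1, 6.17 to 7.74 for Tcl1b1 and 6.80 to 9.74 for the others. With the pool number as a replicate block, 26 genes (18 higher, 8 lower) and 1 member passed. The titles give each number to 1 neighboring and 1 non-neighboring pool, but do not say what such a pair shared. Deviations of same-numbered pools correlated at -0.000511 to 0.179, and 3 of 7 correlated best with their own number. Pseudocounts of 0.1 and 10 moved the stage differences of Tcl1b genes most, for Tcl1b4 in DRaqL-SMART-Seq v4 to 9.07 and 2.96. TMM scaling shifted all genes by -0.12 in the stage comparison. Values of a few reads per cell limit the Tcl1b genes in primary oocytes, mESCs and granulosa cells. The causes were not tested.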
